A study of Mus musculus with 6 samples.

Results

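A group of 7 genes that act downstream of, or feed back on, the circadian clock were described in mouse primary cortical neurons: Dbp, Tef, Hlf, Nfil3, Bhlhe40, Bhlhe41 and Ciart. They were chosen by name, with earlier results of these data known. All 7 were found by symbol among the 55385 gene identifiers in the count files. The cells came from brain cortices of embryos at embryonic day 18 and were grown for 16 days in vitro. Every culture, in both groups, had received 2.5 uM AraC, which blocks DNA synthesis and limits dividing cells, for 24 hours from day 2. The 3 libraries labelled control came from cells left untreated. The 3 libraries labelled activated came from cells given KCl, which depolarises neurons, for 5 minutes, followed by 2 washes and 30 minutes of recovery. One label field gives 50 mM KCl and another 50 uM. The sample values used here hold no harvest time or clock synchronisation step, and the part of either in the group differences was not tested. The labels name no mouse strain and do not say whether embryos were pooled or whether replicates were separate cultures, so the p-values refer only to the spread among these samples, which may be technical.

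DBP, TEF and HLF are the PAR-bZIP transcription factors, named for a proline- and acid-rich stretch beside their basic leucine zipper. They activate genes that carry D-box elements, and NFIL3, a related bZIP protein, represses through the same elements. BHLHE40 and BHLHE41 (DEC1 and DEC2) are basic helix-loop-helix repressors that compete with the clock activator CLOCK-BMAL1 at E-box elements, while CIART (CHRONO) binds BMAL1 and represses its activity. In brain, PAR-bZIP factors are known for sustaining pyridoxal kinase and for protecting against seizures, and Bhlhe40 and Nfil3 also respond to extracellular signals.

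Between 17753000 and 32920000 own-strand gene reads were counted per library, the fewest in activated replicate 1. The direction of known activity-induced genes was opposite to that expected from the labels. Arc, Fos and Npas4 stood at 176, 203 and 159 CPM (read counts scaled to library size, after trimmed-mean or TMM scaling) on average in labelled control libraries and at 48.9, 90.3 and 44.3 CPM in labelled activated ones. Of 18 rapid activity-induced genes, 16 were lower and 2 higher. Each direction below therefore rests on the labels being right. Marker levels also moved with the labels, where 20.6% of all genes tested were called lower and 16.2% higher. Of 10 inhibitory neuron markers 6 were lower and none higher, with a summed level of 1480 to 1510 CPM in labelled control and 958 to 1110 CPM in labelled activated libraries; Gad1 and Pvalb had log2 fold changes of −0.81 and −1.17. Of 10 excitatory markers 7 were lower, among them Bcl11b (−0.60) and Neurod2 (−0.59), and 1, Camk2a (0.36), was higher. Their sum was 2090 to 2200 CPM against 2230 to 2400 CPM, and 1090 to 1170 against 941 to 1090 CPM without Camk2a. Of 10 astrocyte markers 9 were higher, among them Slc1a3 (0.69) and Apoe (0.70), with sums of 1090 to 1120 and 1470 to 1810 CPM. Of 8 microglia markers tested 5 were higher and none lower (Tyrobp 0.65 and C1qc 0.77, sums 28.7 to 42.4 and 35.4 to 78.6 CPM), but the groups overlapped for each of the 5. That count was 0 with a replicate block, without control replicate 3 or without activated replicate 3, 1 with the DESeq2 Wald test, 2 with total counts only, and 3 when 1 of control replicates 1 and 2 and activated replicate 2 was dropped. Higher counts with none lower were also found for oligodendrocyte lineage (4 of 6 tested, Olig2 0.70 and Cspg4 0.81, sums 51.1 to 54.4 and 67.9 to 79.5 CPM) and endothelial, mural and fibroblast markers (5 of 7 tested, Col1a2 0.88 and Pdgfrb 0.82, sums 77.3 to 87.5 and 106 to 143 CPM). No marker was at 0 in all libraries, but several were near the floor and not tested. Cldn5, Sox10 and Mog had at most 2 reads in any library, and P2ry12 and Tmem119 at most 11 and 8. In bulk RNA, fewer cells of a type and less RNA per cell cannot be told apart, and the part of cell makeup in the values below was not tested.

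All 7 clock output genes passed the filter on low counts. In the libraries labelled activated 5 were lower (Nfil3, Ciart, Hlf, Bhlhe40 and Tef), none was higher, and Dbp and Bhlhe41 did not pass (edgeR quasi-likelihood test, Benjamini-Hochberg adjusted p below 0.05 over 18132 genes). Over all genes tested, 20.6% were called lower and 16.2% higher. The 5 lower genes were also those whose values did not overlap between groups, and over all genes 26.4% did not overlap with lower and 22.6% with higher values. The median log2 fold change of the 7 was −0.31, against 0.04 over all genes tested. Since the 7 were chosen with earlier results known, these contrasts are descriptions only. These calls depend on how libraries are scaled to each other. With libraries scaled to the summed excitatory and inhibitory neuron markers, the median over all genes was 0.17. Of all genes tested, 5003 were then called higher and 2031 lower, while Nfil3 and Hlf were lower and Bhlhe41 was higher. With Camk2a left out of those markers, a setting added after the data were seen, the median over all genes was 0.40. In that setting 9524 of all genes were called higher and 388 lower. Nfil3 was lower there (−0.45, edgeR adjusted p = 0.00534), and Dbp (0.33, below that median) and Bhlhe41 (0.48) were higher.

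**Figure D1:**
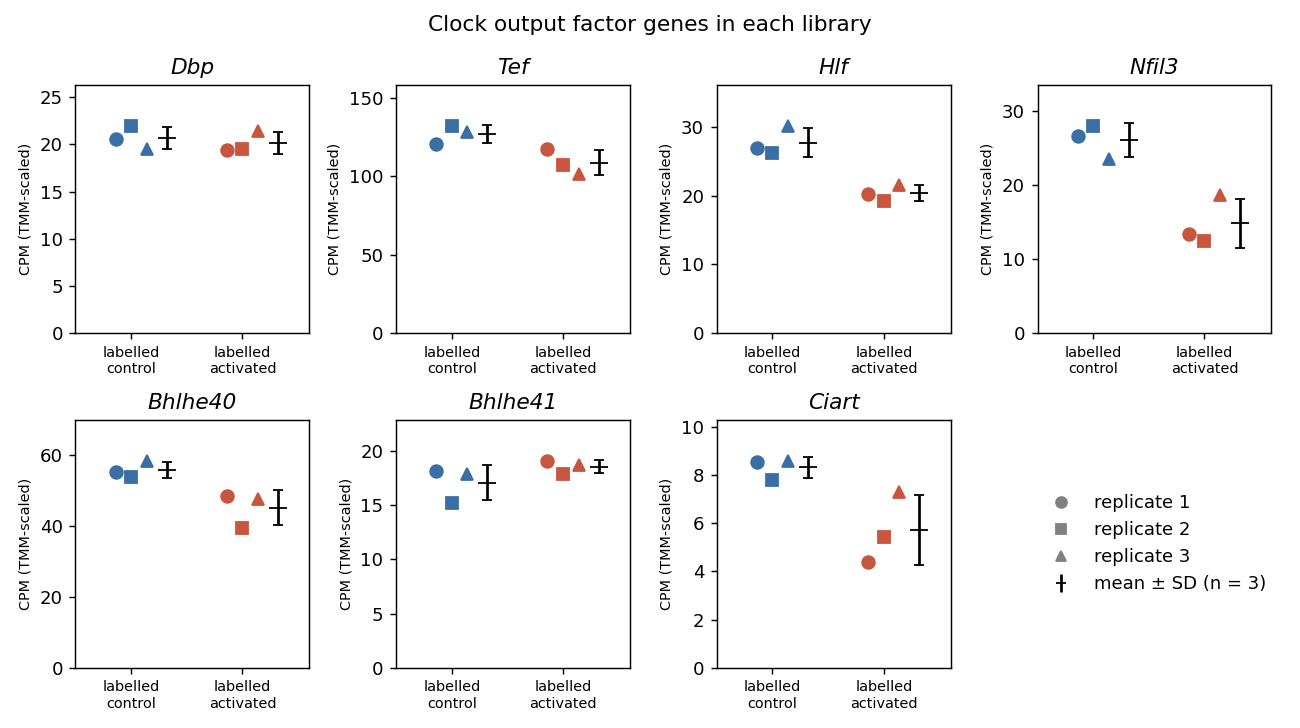
TMM-scaled CPM on the vertical axis for each of the 7 genes in the 3 labelled control (blue) and 3 labelled activated (red) libraries, with mean and SD (n = 3) in black. Nfil3, Hlf, Tef, Bhlhe40 and Ciart have no activated library as high as the lowest control library, whereas the groups overlap for Dbp and Bhlhe41.

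Among the PAR-bZIP activators, Hlf and Tef fell in the libraries labelled activated, while Dbp did not pass the test. Hlf (ENSMUSG00000003949.16, chromosome 11, 90336536 to 90390895, minus strand, mm10) stood at 27.0, 26.2 and 30.2 CPM in control replicates 1, 2 and 3 and at 20.2, 19.3 and 21.6 CPM in activated replicates 1, 2 and 3. All 3 activated values lay below the lowest control value, and neither group had a library that stood far from the others. The means were 27.8 ± 2.09 and 20.4 ± 1.15 CPM (SD, n = 3 each), so that the log2 fold change was −0.45 with an SE of 0.08 (adjusted p from edgeR = 0.000876). These values rested on 340 to 1020 reads per library. The call was lost with libraries scaled to neuron markers other than Camk2a (−0.09, adjusted p = 0.413).

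Tef (ENSMUSG00000022389.15, chromosome 15, 81802421 to 81826863, plus strand) had the most reads of the 7, from 1970 to 4345 per library. Its values were 120, 132 and 128 CPM in control replicates 1 to 3 and 117, 107 and 102 CPM in activated replicates 1 to 3. The groups were separated only by the small gap between control replicate 1 and activated replicate 1. The log2 fold change was −0.23 with an SE of 0.07 (adjusted p from edgeR = 0.0177), from 127 ± 5.84 to 109 ± 7.97 CPM (SD, n = 3). The call was lost without control replicate 2 (−0.18, adjusted p = 0.0846) or control replicate 3 (−0.22, adjusted p = 0.0666). It was also lost under the neuron marker scaling (−0.10, adjusted p = 0.254), and without Camk2a in that scaling the value was 0.14 (adjusted p = 0.154).

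Dbp (ENSMUSG00000059824.12, chromosome 7, 45705088 to 45710203, plus strand), whose RNA is known for a high-amplitude daily rhythm in many tissues, stood at 20.6, 21.9 and 19.6 CPM in control replicates 1 to 3. In activated replicates 1 to 3 it stood at 19.5, 19.5 and 21.5 CPM, inside or next to the control range. The log2 fold change was −0.03, with a 95% interval from −0.21 to 0.14 (edgeR adjusted p = 0.762), so a fall as large as that of Hlf lay outside the interval. With libraries scaled to neuron markers other than Camk2a it was called higher (0.33, adjusted p = 0.00876), though below the median of 0.40 over all genes. Exons of Dbp share 539 bases with exons of Sphk2 on the opposite strand. Counting on the gene's own strand assigned 1763 reads to Dbp over the 3 control libraries, against 1118 in the unstranded column, and the unstranded log2 fold change was −0.07.

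RefSeq promoter windows (GRCm38.p6, 250 bases before to 50 after an annotated start) were available for 6 of the 7 genes, with 2 windows for Tef. They were searched on both strands for the E-box CACGTG, the E-prime box CACGTT, the D-box in its forms TTATGTAA and TTACGTAA, the cAMP response element (CRE) TGACGTCA and its short form TGACG, which the full CRE also contains. The windows of Hlf and Tef are shown because these 2 genes fell and hold different elements, with every match in capitals.
Hlf, chr11:90390868-90391167, minus strand: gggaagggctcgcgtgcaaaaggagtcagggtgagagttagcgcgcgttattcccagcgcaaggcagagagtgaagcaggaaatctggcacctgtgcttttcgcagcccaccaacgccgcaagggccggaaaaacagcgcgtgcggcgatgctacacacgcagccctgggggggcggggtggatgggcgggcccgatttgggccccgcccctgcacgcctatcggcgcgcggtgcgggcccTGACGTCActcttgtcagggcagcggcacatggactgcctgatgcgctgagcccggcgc
Tef, first window, chr15:81802423-81802722, plus strand: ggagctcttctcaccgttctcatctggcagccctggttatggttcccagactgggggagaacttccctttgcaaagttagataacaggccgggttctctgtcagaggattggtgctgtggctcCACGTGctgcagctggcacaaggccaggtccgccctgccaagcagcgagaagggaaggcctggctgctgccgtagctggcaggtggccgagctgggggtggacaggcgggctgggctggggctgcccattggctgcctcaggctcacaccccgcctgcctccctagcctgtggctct
Tef, second window, chr15:81811164-81811463, plus strand: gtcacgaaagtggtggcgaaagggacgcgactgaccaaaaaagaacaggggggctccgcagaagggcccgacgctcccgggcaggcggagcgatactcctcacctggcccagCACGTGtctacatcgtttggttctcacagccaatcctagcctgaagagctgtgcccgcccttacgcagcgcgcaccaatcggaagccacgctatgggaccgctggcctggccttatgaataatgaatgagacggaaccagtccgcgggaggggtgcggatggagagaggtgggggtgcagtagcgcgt
The Hlf window held a full CRE that began 9 bases before the start site, an element present in 1.79% of the 32851 windows of that table. Each Tef window held 1 E-box, beginning 127 and 138 bases before its start site, and 7.15% of all windows held at least 1. The Dbp window held no match to any of the motifs, and none of the 7 windows held a D-box or an E-prime box, which occurred in 1.06% and 4.68% of all windows. A match is a description of the letters and not evidence of binding. Bhlhe40 had no window, and sequence outside the windows was not searched. A gene without a match may hold the element elsewhere.

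Nfil3 (ENSMUSG00000056749.7, chromosome 13, 52967209 to 52981073, minus strand), the repressor at D-boxes, had the largest difference of the 7. It stood at 26.7, 27.9 and 23.5 CPM in control replicates 1 to 3 and at 13.4, 12.5 and 18.6 CPM in activated replicates 1 to 3. Activated replicate 3 was higher than the other activated libraries but still below every control library. The means were 26.0 ± 2.31 and 14.8 ± 3.31 CPM (SD, n = 3), which gave a log2 fold change of −0.79 with an SE of 0.13 (adjusted p from edgeR = 0.00035). Only 0.756% of all genes tested had a value this low or lower. Without activated replicate 3 the log2 fold change was −1.01. Under the neuron marker scaling it was −0.67, and −0.45 with Camk2a left out of the markers, and Nfil3 was called under both.
Its promoter window is given for comparison with that of Hlf, since it held a lone short form of the CRE (capitals, on the reverse strand) beginning 59 bases before the start site and no full CRE.
Nfil3, chr13:52980990-52981289, minus strand: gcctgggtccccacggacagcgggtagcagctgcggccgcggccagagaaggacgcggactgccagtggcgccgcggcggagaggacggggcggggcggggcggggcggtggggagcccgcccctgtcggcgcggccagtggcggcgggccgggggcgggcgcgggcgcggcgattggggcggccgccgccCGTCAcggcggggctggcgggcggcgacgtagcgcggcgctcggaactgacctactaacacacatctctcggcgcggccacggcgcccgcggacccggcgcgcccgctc
The short form was present in 20.8% of all windows, and 81.7% of the bases of this window were G or C.

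Bhlhe40 (ENSMUSG00000030103.11, chromosome 6, 108660629 to 108666925, plus strand) fell, and its paralogue Bhlhe41 did not pass the test. Bhlhe40 stood at 55.1, 53.8 and 58.3 CPM in control replicates 1 to 3 and at 48.3, 39.5 and 47.5 CPM in activated replicates 1 to 3. The groups did not overlap, and activated replicate 2 was the lowest library. The log2 fold change was −0.31 with an SE of 0.08 (adjusted p from edgeR = 0.00756), from 55.7 ± 2.34 to 45.1 ± 4.90 CPM (SD, n = 3). Under the neuron marker scaling it shrank to −0.18 and lost its call (adjusted p = 0.0524), and without Camk2a in that scaling it was 0.05 (adjusted p = 0.577).

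Bhlhe41 (ENSMUSG00000030256.11, chromosome 6, 145858243 to 145865558, minus strand) stood at 18.1, 15.2 and 17.9 CPM in control replicates 1 to 3 and at 19.0, 17.9 and 18.7 CPM in activated replicates 1 to 3. The groups overlapped, and control replicate 2 was the lowest library. The log2 fold change was 0.12 with a 95% interval from −0.08 to 0.31 (edgeR adjusted p = 0.329). Under the neuron marker scaling it was 0.24 and was called higher (adjusted p = 0.0454), as it was without Camk2a in that scaling (0.48, adjusted p = 0.00136). The medians over all genes were 0.17 and 0.40 under these scalings. Its promoter window held 1 E-box, beginning 153 bases before the start site. An annotated unconfirmed transcript, Gm43909, shares 1280 exon bases with Bhlhe41 on the opposite strand.

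Ciart (ENSMUSG00000038550.10, chromosome 3, 95878503 to 95882251, minus strand), the repressor that binds BMAL1, had the fewest reads of the 7, between 74 and 290 per library. It stood at 8.55, 7.79 and 8.57 CPM in control replicates 1 to 3 and at 4.40, 5.42 and 7.28 CPM in activated replicates 1 to 3. The activated libraries were spread widely, and activated replicate 3 lay just under the lowest control library. The log2 fold change was −0.52 with an SE of 0.15 (adjusted p from edgeR = 0.0185), from 8.30 ± 0.445 to 5.70 ± 1.46 CPM (SD, n = 3). The call was lost when control replicate 1 (−0.49), control replicate 3 (−0.49), activated replicate 1 (−0.39) or activated replicate 2 (−0.46) was left out, and under the neuron marker scaling with Camk2a (−0.39, adjusted p = 0.0654) or without it (−0.16, adjusted p = 0.383). Without activated replicate 3 the value was −0.74. Reads on the opposite strand made up 7.85% of the reads at Ciart in labelled control libraries and 14.6% in those labelled activated. Their own level overlapped between groups, at 0.706, 0.593 and 0.798 CPM in control and 0.774, 1.29 and 0.91 CPM in activated replicates 1 to 3. An annotated antisense gene, C920021L13Rik, overlaps the Ciart locus without sharing exon bases.
The Ciart window is shown because it held 3 E-boxes (capitals), beginning 116, 58 and 44 bases before the start site.
Ciart, chr3:95882179-95882478, minus strand: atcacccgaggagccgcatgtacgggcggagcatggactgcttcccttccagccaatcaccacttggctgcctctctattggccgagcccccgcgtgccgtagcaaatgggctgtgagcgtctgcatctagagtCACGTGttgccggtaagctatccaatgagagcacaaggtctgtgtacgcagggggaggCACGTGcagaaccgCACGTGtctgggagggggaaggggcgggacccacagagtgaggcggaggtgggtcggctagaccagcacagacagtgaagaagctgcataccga
At least 3 E-boxes were found in 29 of all 32851 windows (0.0883%).

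Levels were compared between genes as CPM per kb of annotated exon. That length merged the exons of all annotated transcripts of a gene. The order of genes and the level of the ratios below depend on it. In labelled control libraries the order was Tef (16.1 ± 0.743), Nfil3 (12.9 ± 1.14), Bhlhe40 (11.8 ± 0.497), Dbp (6.92 ± 0.396), Hlf (4.16 ± 0.313), Ciart (3.67 ± 0.197) and Bhlhe41 (2.54 ± 0.240; SD, n = 3 throughout). Nfil3 and Bhlhe40 overlapped in these libraries, and the values of each other neighbouring pair did not overlap, although Hlf and Ciart lay close together, with a lowest Hlf value of 3.92 and a highest Ciart value of 3.79. In labelled activated libraries Bhlhe40 (9.59 ± 1.04) stood above Nfil3 (7.33 ± 1.64), and Bhlhe41 (2.76 ± 0.0920) above Ciart (2.52 ± 0.644), but the values of each pair overlapped. Nfil3 there also overlapped Dbp (6.73 ± 0.383), and Ciart overlapped Hlf (3.05 ± 0.172).

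Ratios between these genes within a library do not depend on how libraries are scaled to each other. The level of Nfil3 per kb was 0.502, 0.492 and 0.423 times the summed level of Dbp, Tef and Hlf in control replicates 1 to 3. In activated replicates 1 to 3 it was 0.271, 0.268 and 0.395 times that sum, so that activated replicate 3 lay close to control replicate 3. The mean log2 ratio differed by −0.62 ± 0.20 (SE). The ratio of Bhlhe40 to Bhlhe41 was 4.35, 5.05 and 4.66 in control replicates and 3.62, 3.16 and 3.63 in activated replicates, a difference of −0.43 ± 0.09 in log2. The ratio of Dbp to Hlf was 1.71, 1.87 and 1.45 in control and 2.15, 2.25 and 2.22 in activated replicates, a difference of 0.41 ± 0.11. For these 3 ratios no library of one group lay within the range of the other, and each gave p = 0.1 in an exact two-sided permutation test, the smallest p that 3 libraries against 3 allow (0.167 adjusted over the 5 ratios). The groups overlapped for Dbp over Tef (0.19 ± 0.11, exact permutation p = 0.3) and Tef over Hlf (0.22 ± 0.12, exact permutation p = 0.2). No ratio could pass 0.05 in this design.

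**Figure D2:**
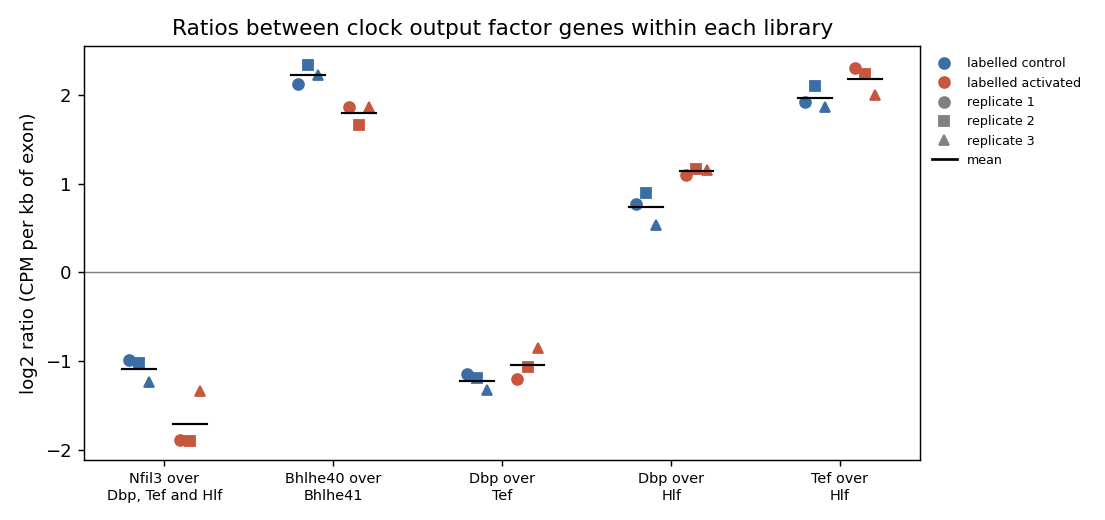
Log2 of the ratio of CPM per kb of exon between clock output factor genes (vertical axis), with 1 point per library and a black bar at each group mean. Nfil3 over the 3 PAR-bZIP genes and Bhlhe40 over Bhlhe41 are lower, and Dbp over Hlf higher, in all 3 labelled activated (red) than in all 3 labelled control (blue) libraries.

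The core clock genes drive these outputs or are repressed by them. They were examined as a fixed list of 20, also chosen with earlier results known, of which 19 were tested. Of these, 9 were lower, 1 was higher and 9 did not pass, where 20.6% of all genes tested were lower and 16.2% higher. The median of the 19 was −0.17 on the log2 scale. With libraries scaled to neuron markers other than Camk2a, none of the list was lower and 7 were higher. Under that scaling 9524 of all 18132 genes were higher and 388 lower. The activators Clock (−0.05) and Arntl, which encodes BMAL1 (0.03), did not pass. The lower genes included Per1, Per2, Cry1 and Cry2, whose proteins repress CLOCK-BMAL1. Per1 stood at 149, 137 and 123 CPM in control and 89.1, 83.9 and 112 CPM in activated replicates 1 to 3 (log2 fold change −0.52, edgeR adjusted p = 0.00123), Per2 had a value of −0.33, and Cry1 and Cry2 had −0.53 and −0.34. The nuclear receptor genes Nr1d1 (−0.50) and Nr1d2 (−0.49), which encode the repressors REV-ERB alpha and beta, and Rora (−0.31), their activating counterpart, fell too. So did the casein kinase genes Csnk1d (−0.24) and Csnk1e (−0.26), which phosphorylate PER proteins and lost their calls under the neuron marker scaling (−0.11 and −0.14). Per3, with means of 21.3 and 26.6 CPM and overlapping groups, was the gene of this list called higher (0.31). Its call was lost with total counts only (0.25), with the replicate block (0.31, adjusted p = 0.0597) and when any of 4 libraries was left out: control replicate 1 (0.30), control replicate 2 (0.30), activated replicate 1 (0.28) or activated replicate 2 (0.22).

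Of 9 other genes known as clock outputs or PAR-bZIP targets, 8 were tested, 3 were lower, 1 was higher and 4 did not pass. These counts of few genes stand beside 20.6% lower and 16.2% higher over all genes tested. Nampt, the rate-limiting enzyme of NAD salvage, went from 37.8 ± 1.85 to 30.4 ± 2.43 CPM (SD, n = 3; log2 fold change −0.31). The cell cycle kinase gene Wee1 and the glucocorticoid-induced gene Tsc22d3 both had −0.39, and the tetraspanin gene Tspan4 had 0.35. Under the neuron marker scaling Nampt (−0.18), Wee1 (−0.26) and Tsc22d3 (−0.27) lost their calls, and without Camk2a in that scaling they stood at 0.05, −0.02 and −0.04. Wee1 was also not called without control replicate 3 (−0.34), nor Tsc22d3 without control replicate 2 (−0.28) or activated replicate 2 (−0.28). Tspan4 lost its call with total counts only (0.28), with the replicate block (0.34, adjusted p = 0.0551) and without control replicate 3 (0.29) or activated replicate 3 (0.22). Pdxk, which encodes pyridoxal kinase, did not pass at 152 ± 6.43 and 136 ± 9.55 CPM (−0.16, edgeR adjusted p = 0.0723), nor did Por (0.12), Alas1 (−0.11) or Usp2 (0.04). Nr1i3 had at most 2 reads in any library and was not tested.

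**Figure D3:**
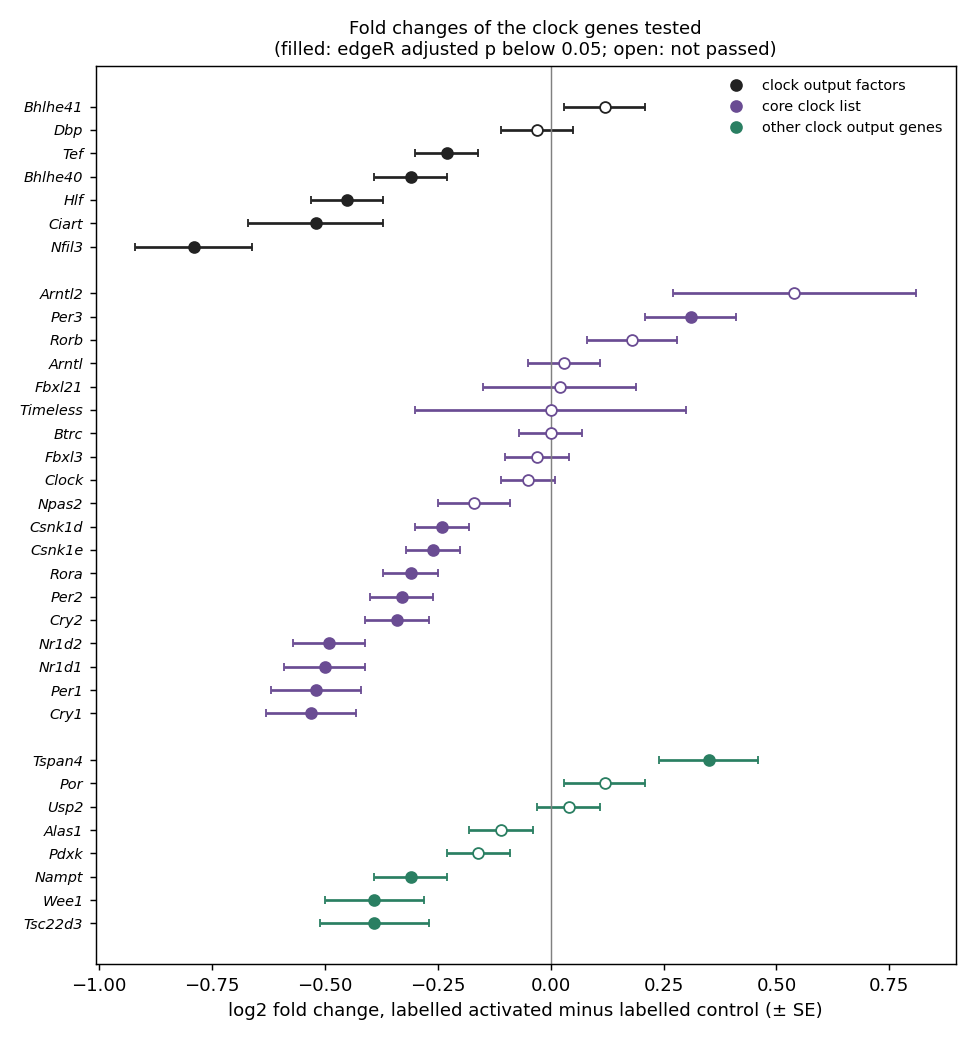
Log2 fold change of labelled activated over labelled control libraries (horizontal axis, bars ± SE) for the clock output factor genes (black), the core clock list (purple) and the other clock output genes (green), with filled points for adjusted p below 0.05. Nfil3 is the lowest point at −0.79, and Clock, Arntl and Dbp lie within 0.05 of zero.

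Close relatives of these factors by protein family did not all share the direction. Each count below is of few genes, where 20.6% of all genes tested were lower and 16.2% higher. Of 8 genes of the HES and HEY family, whose basic helix-loop-helix and Orange domains resemble those of BHLHE40, 6 were tested and 2 were lower, Hey1 (−0.39) and Hes6 (−0.54), with none higher, though neither passed with libraries scaled to neuron markers other than Camk2a (−0.03 and −0.19). Of 6 C/EBP genes, bZIP relatives of NFIL3 and the PAR-bZIP factors, 4 were tested and 2 were higher, Cebpd (0.76) and Cebpb (0.46), with none lower. Cebpb lost its call with total counts only (0.39), in unstranded counts (0.34), with the replicate block (0.45, adjusted p = 0.0501) and when control replicate 1 (0.37), control replicate 3 (0.40) or activated replicate 3 (0.29) was left out. Ddit3 was not used, since 2 identifiers share its symbol, and Heyl, Helt and Cebpe had at most 5 reads in any library.

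Across the 6 libraries, log2 CPM of Hlf had a Pearson r of 0.92 with Bhlhe40, 0.89 with Nfil3 and 0.85 with Ciart, and that of Nfil3 an r of 0.90 with Ciart. Bhlhe41 had a negative r with each of the other 6 genes, from −0.26 to −0.62. These describe 6 points that share 2 groups and 1 scaling. Among 9866 genes with a mean log2 CPM of at least 3, the closest patterns reported here were Shmt2 (r = 0.993) and Fam189a2 (0.980) for Dbp, Fam207a (0.997) for Tef, and Ubr3 and Mef2c (0.9999 and 0.999) for Hlf. For Nfil3 they were Pou3f1 and Mex3a (both 0.998), for Bhlhe40 Lrrc4c (0.991), for Bhlhe41 Erg28 (0.996), and for Ciart Gab2 (0.992) and Gatm (0.990). These r values were picked as the highest and do not measure the size of a change. The log2 fold change of Ubr3 was −0.07 and that of Mef2c −0.48, against −0.45 for Hlf. Pou3f1 had −0.62 and Mex3a −0.25, against −0.79 for Nfil3.

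**Figure D4:**
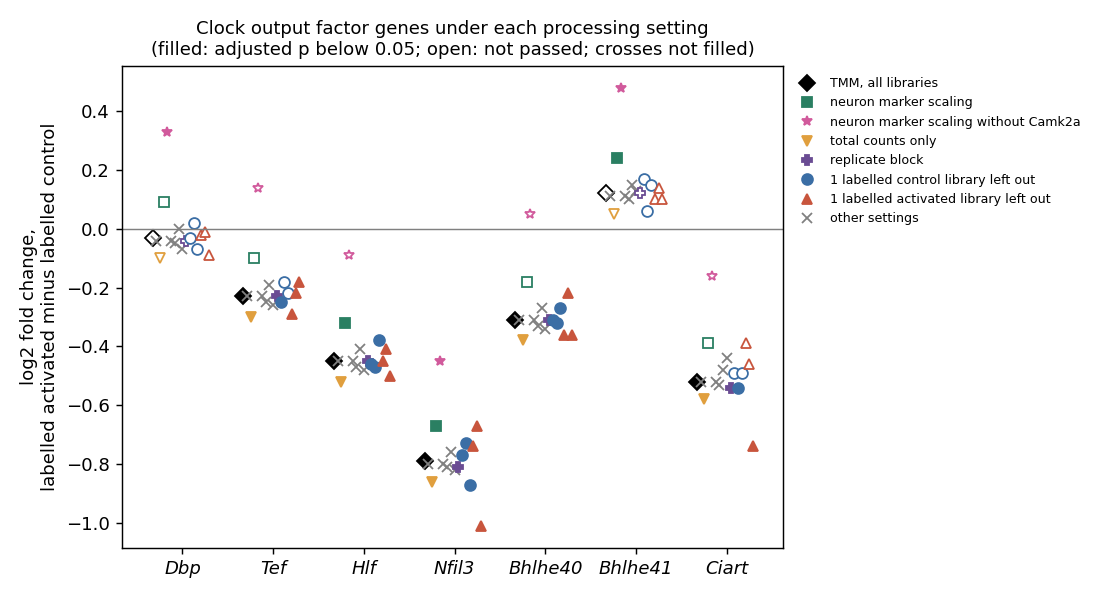
Log2 fold change (vertical axis) of each of the 7 genes under every processing setting, with filled points where adjusted p was below 0.05 and grey crosses for other settings. Nfil3 is called lower in each of the 15 alternatives, Hlf loses its call only with the neuron marker scaling without Camk2a (−0.09), and Bhlhe41 is called higher only under the neuron marker scalings (0.24 with Camk2a and 0.48 without).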

How the data were processed

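Ribosomal RNA-depleted total RNA of 6 samples was sequenced as strand-specific paired reads of 150 bp, per the labels' protocols. The submitters' processing notes name STAR 2.5.2b, the mm10 build and edgeR; the annotation release is not given in the sources used here. The deposited files hold raw counts per gene, unstranded and for each strand, and reverse-strand counts were used. Opposite-strand reads were 4.05% to 4.29% of both strands. Lines naming no gene were left out. Their main part was reads outside exons of the counted strand, which include exon reads on the opposite strand. These were 27.7% and 32.6% of all reads on average in labelled control and labelled activated libraries. The groups overlapped, at 25.1% to 29.6% and 28.3% to 37.3%. Names, positions and exon lengths came from GENCODE mouse release M21, which matched 55144 of 55385 identifiers.

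filterByExpr (minimum count 10, total 15) left 18132 genes. edgeR 4.0.16 (R 4.3.3) scaled by TMM and fitted the quasi-likelihood test on all 6 libraries, with Benjamini-Hochberg adjustment over all genes and a threshold of 0.05. Standard errors were obtained by dividing the size of the log2 fold change by the root of its F statistic, and 95% intervals use the test's degrees of freedom. The biological coefficient of variation was 0.076. Log2 CPM used a prior count of 2. Ratios were tested with exact permutations (SciPy 1.17.1). For this comparison, counts of 18132 genes were also simulated. Of the true differences, 48 of 67 at 1.5-fold, 61 of 67 at 2-fold and 63 of 66 at 4-fold were found, with 4 false calls. Far fewer genes differed there than were called in these data (2945 higher and 3733 lower). The simulation therefore cannot show how calls depend on scaling, and its 4 false calls are not an error rate for these data. Alternatives were DESeq2 1.42.0 size factors and Wald test, total counts, neuron marker scaling (with Camk2a and, added after seeing the data, without it), 2 other filters, unstranded counts, a replicate block and each library left out.

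The members and lists were chosen with earlier results of these data known. Named were all members, core clock and clock output genes past the threshold, the 2 smallest p-values of each other list, Arc, Fos and Npas4, and the 2 closest patterns per member. Other genes named without a call (among them Clock, Arntl, Pdxk, Por, Alas1 and Usp2) were chosen after their values were seen. A few genes these rules select are not reported here. No pairing of replicate numbers was used.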

Additional observations from a re-analysis of the deposited data

Results flagged for a closer look

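Reads on the strand opposite to Tef were not part of its reverse-strand counts. Their level was higher in every labelled activated library than in every labelled control library. It was 0.357, 0.323 and 0.408 CPM in activated and 0.177, 0.254 and 0.207 CPM in control replicates 1 to 3. The means were 0.363 and 0.213 CPM, from 5 to 13 reads per library, and the difference was not tested. Opposite-strand reads at Bhlhe41 also separated the groups, in the other direction. They stood at 0.247, 0.381 and 0.266 CPM in control and 0.119, 0.144 and 0.0627 CPM in activated replicates 1 to 3, from 2 to 9 reads per library. How often such separation occurs over all genes was not counted. An annotated antisense gene, Gm17597, shares 193 exon bases with Tef.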

How the results depend on the processing

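Among the 7 genes, Nfil3 kept its direction and call under all 15 alternatives run, and Hlf under all but neuron marker scaling without Camk2a. Scaling to neuron markers moved the median over all genes from 0.04 to 0.17 and left 2 genes lower and 1 higher. Under it Tef (−0.10), Bhlhe40 (−0.18) and Ciart (−0.39) lost their calls, Bhlhe41 gained one (0.24), and Dbp, which did not pass, changed sign (0.09). It called 5003 of all genes higher and 2031 lower, against 2945 and 3733. Camk2a was left out of those markers in a setting added after seeing the data. The median over all genes was then 0.40, with 9524 higher and 388 lower, 1 of the 7 genes was lower and 2 were higher. The values were 0.33 for Dbp, 0.14 for Tef, −0.09 for Hlf, 0.05 for Bhlhe40, 0.48 for Bhlhe41 and −0.16 for Ciart. Of the core clock list 7 genes were then higher and 0 lower, and the sign turned for Per2 (0.04), Cry2 (0.02), Rora (0.06), Csnk1d (0.13), Csnk1e (0.10) and Nampt (0.05). Dbp was also on the other side of zero with the filter of 1 CPM in 3 libraries (0.00) and without control replicate 2 (0.02). Under total-count scaling 2089 of all genes rose and 4576 fell, and the same 5 of 7 members were called lower.

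Leaving out each library in turn gave 3 to 5 lower genes and none higher, with 3 without control replicate 3. The log2 fold changes then ranged from −0.09 to 0.02 for Dbp, −0.29 to −0.18 for Tef, −0.50 to −0.38 for Hlf, −1.01 to −0.67 for Nfil3, −0.36 to −0.22 for Bhlhe40, 0.06 to 0.17 for Bhlhe41 and −0.74 to −0.39 for Ciart. For the core clock list 9 genes were lower in each, and 0 to 2 higher. That list had 0 genes higher with total counts only and with the replicate block, and 2 under the neuron marker scaling. The cause of these changes was not tested.

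Libraries with the same replicate number did not deviate together (r of −0.014, −0.182 and −0.215 for numbers 1, 2 and 3), and no library correlated best with its own number. With the replicate block 5 of the 7 genes were lower, Tef at −0.23 (adjusted p = 0.0484), and 2173 of all genes were higher and 3105 lower. Ciart had the fewest reads, 74 to 290 per library.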
